A study of Mus musculus with 6 samples.

Results

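The genes described here are the 4 R-spondins, Rspo1 to Rspo4, and the ubiquitin ligases Rnf43 and Znrf3, in the embryonic mouse palate with and without the Wnt receptor Frizzled 2. Members were chosen by name: every probe set with one of these 6 symbols as its single gene in the platform annotation was taken, which gave 9 probe sets for 6 genes of 34945 single-symbol probe sets for 18193 genes. Rspo1, Rspo4 and Rnf43 have 1 probe set each, and Rspo2, Rspo3 and Znrf3 have 2 each. The family was picked with the difference between the genotypes already known, so the genotype differences of its members are given as descriptions and support nothing.

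Palates were microdissected at E13.5, when the palatal shelves have not yet fused, and total RNA was hybridised to Affymetrix Mouse430_2 arrays, 1 array per sample. There were 3 samples from Fz1-/-; Fz2+/+ embryos, called Fz1-null, and 3 from Fz1-/-; Fz2-/- embryos, called double-null. Both groups lacked Fzd1 by genotype, on a C57BL6/129 mixed background and with mixed gender, so no wild-type palate entered any comparison. The labels do not say which part of either gene is deleted or how many embryos a sample holds, nor whether samples came from separate litters. A p-value here therefore reflects how these samples vary, technical variation included, and the number of arrays limits the precision.

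R-spondins are secreted proteins that raise the sensitivity of cells to Wnt. They bridge the receptors Lgr4, Lgr5 and Lgr6 to the membrane ubiquitin ligases Rnf43 and Znrf3, which otherwise mark Frizzled receptors for removal from the cell surface, and the ligases are withdrawn from the membrane when an R-spondin binds. Rnf43 and Znrf3 are themselves targets of Wnt/beta-catenin signalling in several tissues, which makes them negative feedback genes. Rspo2 is the R-spondin best known in this tissue, since mice that lack it have malformed limbs and faces, including a cleft palate.

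The sequence upstream of Rspo1 and of Rnf43 is shown because these are the members that read lower in the double-null array of every pair. Each run is the 250 bases before a transcript start annotated by RefSeq on GRCm38.p6, written 5′ to 3′ on the + strand, with each CG dinucleotide in capitals.

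Rspo1, chr4:124986180-124986429: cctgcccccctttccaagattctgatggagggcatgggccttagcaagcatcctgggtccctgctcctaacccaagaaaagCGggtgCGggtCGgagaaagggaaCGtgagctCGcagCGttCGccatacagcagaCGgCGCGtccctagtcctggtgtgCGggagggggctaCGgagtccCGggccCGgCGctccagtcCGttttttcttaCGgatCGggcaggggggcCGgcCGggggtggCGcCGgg

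Rnf43, chr11:87662837-87663086: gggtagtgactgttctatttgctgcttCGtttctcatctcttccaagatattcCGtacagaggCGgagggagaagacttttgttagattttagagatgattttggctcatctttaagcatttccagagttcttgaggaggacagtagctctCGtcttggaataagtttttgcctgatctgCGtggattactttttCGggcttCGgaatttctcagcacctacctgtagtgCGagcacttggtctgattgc

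The Rspo1 window held 22 CG dinucleotides and was 66.8% G or C, against medians of 6 and 52.4% over 32851 windows of the same length. The Rnf43 window held 8 and was 44.4% G or C, and the window at a second annotated Rnf43 start held 2. Rspo4 had a window with 24 CG dinucleotides and 69.6% G or C. The core letters bound by TCF/LEF factors, the DNA-binding partners of beta-catenin, were searched as CTTTGA on both strands (TCAAAG on the other). They were present in 13.8% of all windows and in none of the 4 windows of Rspo1, Rspo4 and Rnf43, which says only that these letters are not in these 250 bases.

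The genotype was read first from the receptor genes. The brightest Fzd2 probe set differed by -1.25 (SE 0.11) on the log2 scale between double-null and Fz1-null arrays, with pair differences of -1.25, -1.06 and -1.45, and Fzd1, null in both groups, by 0.08 (SE 0.07). All values are the authors' log2 RMA values, and all differences are double-null minus Fz1-null. Pairs are the arrays of the same replicate number, whose deviations from their group means correlated at 0.63, 0.44 and 0.63 over all probe sets. The defining markers of palatal mesenchyme, Prrx1 and Osr2, and of epithelium, Cdh1 and Epcam, lay in the upper part of the array's range in their brightest probe sets, and so did Myog of skeletal muscle and Tubb3 of neurons, so the samples held several cell types. In such bulk samples fewer cells of a type and less RNA per cell cannot be told apart.

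Rspo1 was lower in each double-null array than in every Fz1-null array. This R-spondin is known for its role in ovary formation in mice and humans. Its probe set (1449319_at) read 8.05, 8.22 and 8.10 in Fz1-null arrays 1 to 3 and 7.72, 7.88 and 7.82 in double-null arrays 1 to 3. The highest double-null array lay 0.17 below the lowest Fz1-null array, so the groups did not overlap. The group means were 8.12 ± 0.08 and 7.81 ± 0.08 (SD, n = 3 each). This made a log2 difference of -0.32 (SE 0.08, 95% interval -0.51 to -0.12), or 1.25-fold lower, which is 80.3% of the Fz1-null level. The pair differences were -0.33, -0.33 and -0.28, with an SD of 0.03.

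In limma across all 45037 probe sets Rspo1 had an unadjusted p of 0.00553 and a Benjamini-Hochberg adjusted p of 1.00. With the replicate number as a block these were 0.00105 and 0.966, so Rspo1 did not pass the threshold of 0.05 in either fit. Without the block it ranked 14 by p among all probe sets and 6 among those that were lower. The authors' deposited table lists Rspo1 with a log2 fold change of 0.32 in the opposite direction (Fz1-null over double-null) and an unadjusted p of 0.00951. An exact permutation test of 3 arrays against 3 cannot give a two-sided p below 0.1. Without any 1 of the 6 arrays the Rspo1 difference ran from -0.35 to -0.27.

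**Figure D1:**
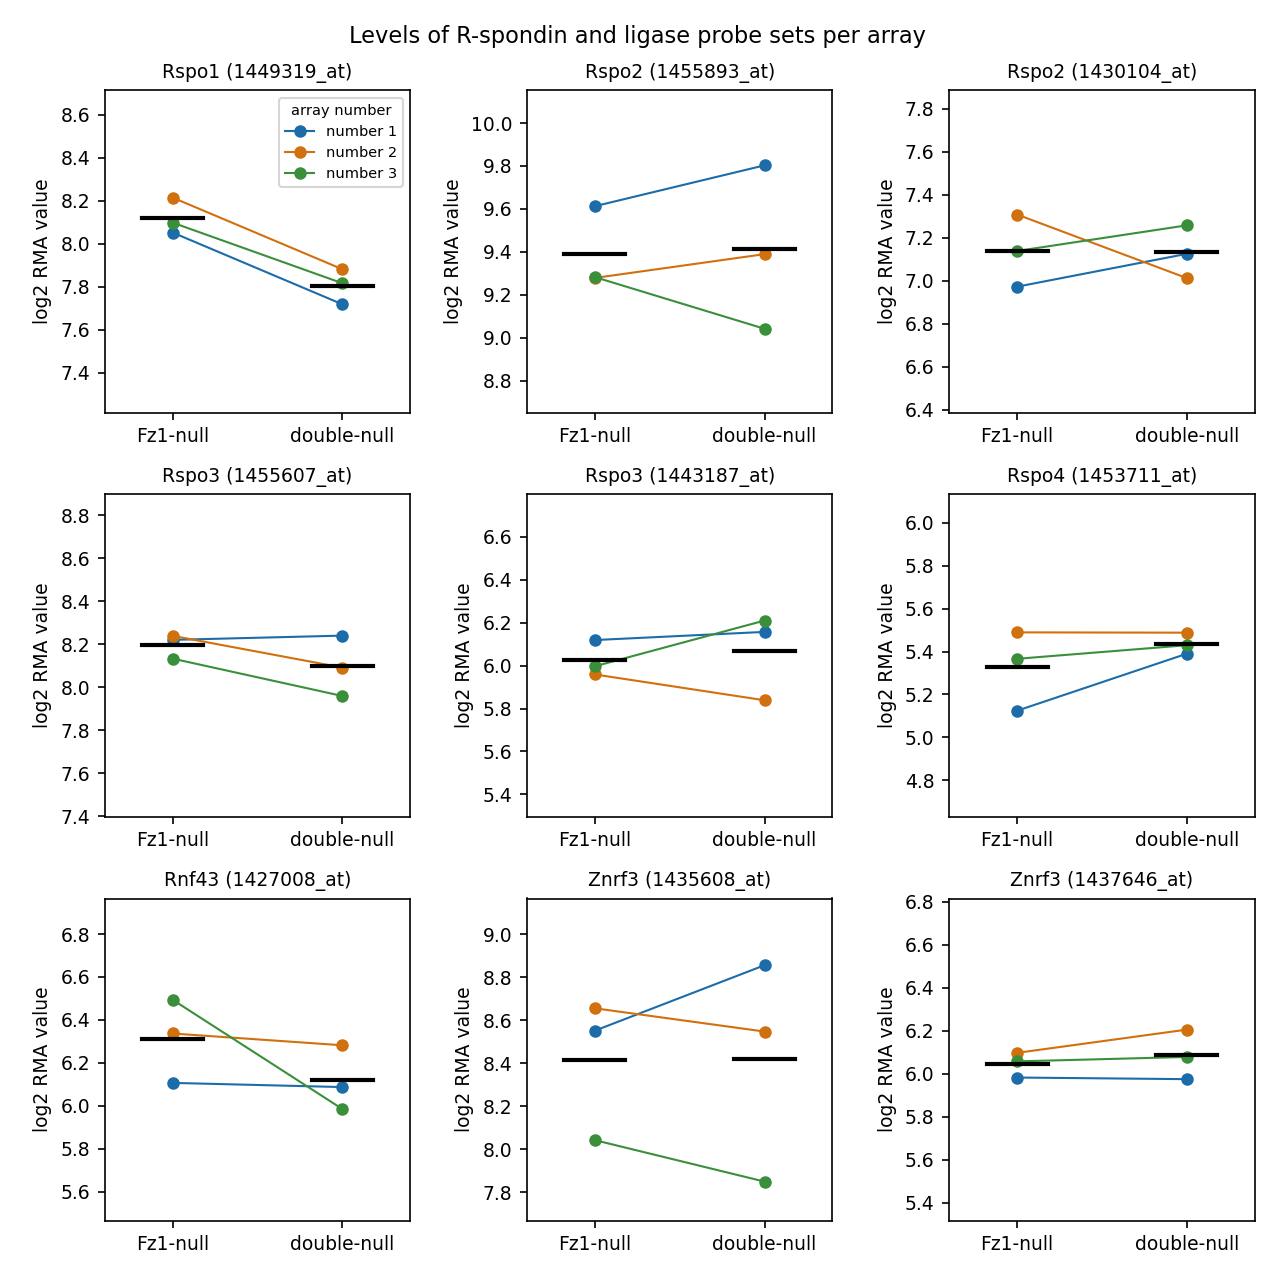
Log2 RMA value (vertical axes, each spanning the same number of log2 units) of the 9 probe sets in Fz1-null and double-null arrays, with points joined by replicate number and black bars at the means of 3 arrays. Rspo1 lies lower in the double-null array of all 3 pairs with no overlap. The line of arrays numbered 1 is highest in the brighter Rspo2 probe set, and that of arrays numbered 3 is lowest in the brighter Znrf3 probe set.

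Rspo2 read nearly the same in the 2 genotypes on average and differed more between array numbers than between genotypes. Its brighter probe set (1455893_at) read 9.61, 9.28 and 9.28 in Fz1-null arrays and 9.80, 9.39 and 9.04 in double-null arrays. Both arrays numbered 1 lay above the other 4, and the double-null array numbered 3 was the lowest. The pair differences were 0.19, 0.11 and -0.24. The log2 difference was 0.02 (SE 0.19, 95% interval -0.42 to 0.46, and SE 0.09 with the replicate block). It turned to -0.04 without Fz1-null array 2, to -0.03 without Fz1-null array 3 and to -0.18 without double-null array 1, and it was 0.20 without double-null array 3. The dimmer Rspo2 probe set (1430104_at), near the median brightness of the array, read 6.97, 7.31 and 7.14 in Fz1-null and 7.13, 7.01 and 7.26 in double-null arrays. Its difference was -0.01 (SE 0.11), and its pair differences of 0.15, -0.30 and 0.12 had the sign of the brighter probe set in pair 1 only.

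Rspo3, an R-spondin that mouse embryos need for blood vessel and placenta formation, read slightly lower in double-null arrays by its brighter probe set, within the spread of the arrays. That probe set (1455607_at) read 8.22, 8.24 and 8.13 in Fz1-null arrays and 8.24, 8.09 and 7.96 in double-null arrays. The 2 arrays numbered 1 were level, and the double-null arrays numbered 2 and 3 were the lowest of all. The log2 difference was -0.10 (SE 0.09, 95% interval -0.31 to 0.11), with pair differences of 0.02, -0.15 and -0.17. The dimmer Rspo3 probe set (1443187_at) differed by 0.04 (SE 0.11). Its pairs stood at 0.04, -0.12 and 0.21, so in pair 3 the 2 probe sets went opposite ways. With each of the 6 arrays left out in turn, the brighter one stayed between -0.17 and -0.03 and the dimmer one ran from -0.03 to 0.16.

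Rspo4, which is needed for nail formation in humans, had the dimmest probe set of the 9 (1453711_at), brighter than or level with only 18.2% of all probe sets. It read 5.12, 5.49 and 5.37 in Fz1-null arrays and 5.39, 5.49 and 5.43 in double-null arrays. The Fz1-null array numbered 1 was below the other 5, which lay close together. The log2 difference was 0.11 (SE 0.10, 95% interval -0.13 to 0.35), and it was 0.01 without that array. RMA gives no call of presence, so whether Rspo4 transcript was present was not determined.

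The ligase Rnf43 was lower in the double-null array of each pair, nearly all of it in 1 pair. Its only probe set (1427008_at) was dim, at a percentile of 30.6 of mean values. It read 6.11, 6.34 and 6.49 in Fz1-null arrays and 6.09, 6.28 and 5.99 in double-null arrays, and the groups overlapped. The log2 difference was -0.19 (SE 0.12, 95% interval -0.48 to 0.09), with pair differences of -0.02, -0.05 and -0.51. Without double-null array 3 it was -0.13, and over the 6 arrays left out in turn it ran from -0.30 to -0.10.

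Znrf3, the other ligase, had a mean difference close to 0 and a wide spread between arrays. Its brighter probe set (1435608_at) read 8.55, 8.66 and 8.04 in Fz1-null arrays and 8.86, 8.55 and 7.85 in double-null arrays. Both arrays numbered 3 lay below the other 4. The pair differences were 0.30, -0.11 and -0.19, so the arrays leave room for a change of either sign. The log2 difference was 0.001 (SE 0.26, 95% interval -0.61 to 0.62, and SE 0.10 with the replicate block). It turned to -0.19 without Fz1-null array 3, to -0.22 without double-null array 1, to -0.06 without double-null array 2 and to -0.01 with arrays centred on their medians. It was 0.29 without double-null array 3, 0.12 without Fz1-null array 2 and 0.07 without Fz1-null array 1. The dimmer Znrf3 probe set (1437646_at) differed by 0.04 (SE 0.09), and by -0.02 without double-null array 2. Its pairs stood at -0.01, 0.11 and 0.02, opposite in sign to the brighter probe set in each pair.

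**Figure D2:**
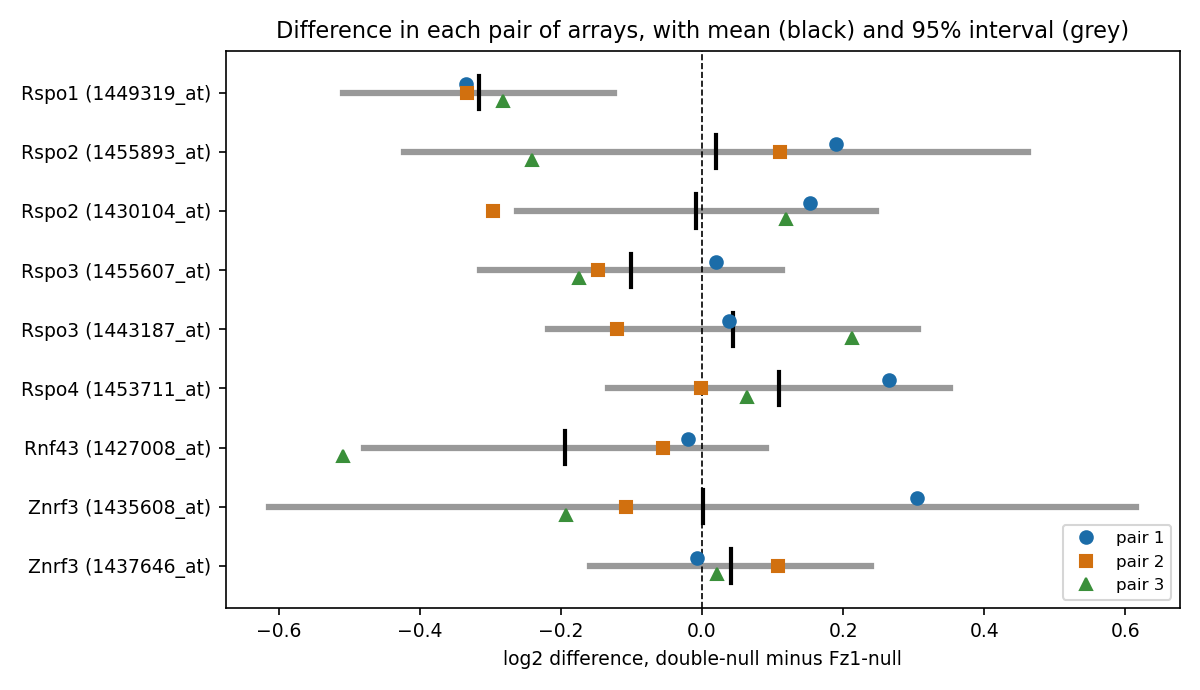
Log2 difference between the double-null and the Fz1-null array of each replicate number (horizontal axis) for the 9 probe sets (vertical axis), with the mean difference as a black bar and limma's 95% interval in grey. The 3 Rspo1 pairs lie between -0.33 and -0.28, and the 3 Rnf43 pairs between -0.51 and -0.02.

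Over the family, 4 of the 9 probe sets were lower and 5 higher in double-null arrays, beside 52.1% lower among all 45037 probe sets. The median log2 difference was 0.001, against a median of -0.004 over all probe sets. The differences ran from -0.32 for Rspo1 to 0.11 for Rspo4. The number past an adjusted p of 0.05 in limma was 0 of 9, beside a background of 0% (0 of 45037, with 431 or 0.957% at an unadjusted p under 0.05). With the replicate block it was again 0 of 9, beside 0.00666%, the 3 probe sets of Fzd2. At an unadjusted p under 0.05 without the block there was 1 member, Rspo1. The groups did not overlap for 1 of 9, again Rspo1, beside 4.51% of all probe sets, with 1.73% in the lower and 2.79% in the higher direction. Rspo1 and Rnf43, 2 of 9, were lower in 3 of 3 pairs, beside 12.8%, and 0 of 9 were higher in 3 of 3, beside 11.6%. Since the family was chosen on this contrast, nothing is read from these counts.

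The brighter probe sets of Znrf3 and Rspo2 varied widely between array numbers. The mean of a pair of arrays ranged over 0.76 log2 units across the 3 numbers for the brighter Znrf3 probe set, a range at or above that of 98.2% of all probe sets. For the brighter Rspo2 probe set it ranged over 0.55, at a percentile of 94.6. The ranges of the dimmer Znrf3 and Rspo2 probe sets stood at percentiles of 45.6 and 37.6. The pair differences of the brighter ones also varied widely, with SDs at percentiles of 94.1 for Znrf3 and 90.0 for Rspo2. Arrays sharing a number still moved together in these. The replicate block lowered the SE of the genotype difference from 0.26 to 0.10 for Znrf3 and from 0.19 to 0.09 for Rspo2. For Rspo1 the range of the pair means was 0.16, at a percentile of 42.2. In 8 of 9 member probe sets the range of the pair means was larger than the difference between the genotypes, Rspo1 being the exception, and this was so in 89.7% of all probe sets.

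**Figure D3:**
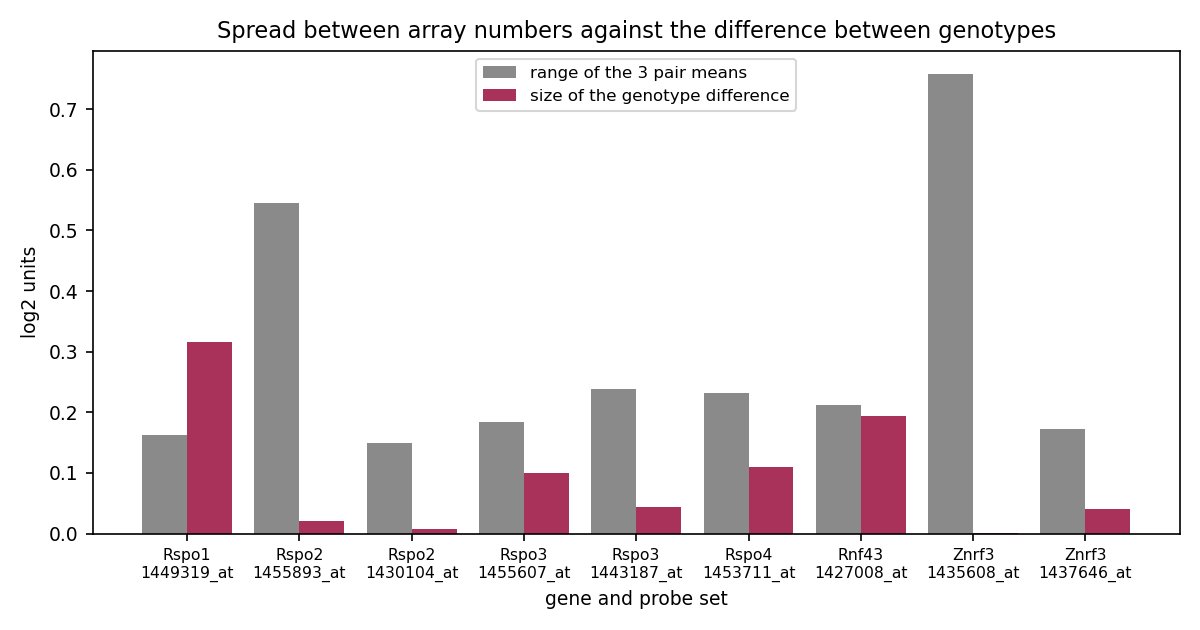
Range of the 3 pair means (grey bars) and absolute size of the mean genotype difference (red bars), both in log2 units, for each gene and probe set. Rspo1 has the only red bar above its grey bar, 0.32 against 0.16, and the brighter Znrf3 probe set has the largest grey bar, 0.76.

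The genes whose levels followed the members most closely over the 6 arrays differed between members. They were sought among 19487 probe sets of other genes at or above the median brightness, and the correlations carry the shared array numbers and, for Rspo1, the genotype. For Rspo1 they were Fbxw9 (Pearson r = 0.977), Esyt2 (0.973) and Cd2ap (0.973), which differed by -0.11, -0.07 and -0.18 on the log2 scale. For Rspo2 they were Ptpn2 (0.998), Tomm20 (0.998) and Rdh11 (0.997), and for Rspo3 Zcchc17 (0.996), Nhp2 (0.995) and Ccdc91 (0.994). For Znrf3 they were Ercc6l (0.998), Gtf2h5 (0.996) and 4930453N24Rik (0.996). A correlation above 0.95 was reached by 11 probe sets for Rspo1, 85 for Rspo3, 363 for Rspo2 and 565 for Znrf3, so a high value over 6 arrays was common.

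The receptors that R-spondins bind had log2 differences between -0.09 and 0.02. Each gene of the lists that follow was taken by its brightest probe set. Lgr4 read 10.99 ± 0.22 in Fz1-null and 10.90 ± 0.27 in double-null arrays (SD, n = 3 each). It was lower in 3 of 3 pairs (-0.10, -0.03 and -0.14), as were 12.8% of all probe sets. The mean difference of Lgr4 was -0.09 (SE 0.16, and 0.06 with the replicate block). Lgr5, which is also a Wnt target, differed by -0.01 (SE 0.17) and Lgr6 by 0.02 (SE 0.12). In limma 0 of 3 passed, with or without the block, and 0 of 3 had an unadjusted p under 0.05. The median difference was -0.01.

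The Frizzled receptors that Rnf43 and Znrf3 act on, with the co-receptors Lrp5 and Lrp6, were lower in 4 and higher in 8 of 12 members, with a median log2 difference of 0.01. Fzd2, deleted by genotype, was the 1 of 12 that passed with the replicate block, and 0 of 12 passed without it (1 of 12, Fzd2, at an unadjusted p under 0.05). Besides Fzd1 and Fzd2, the gene with the smallest p was Fzd4, at 0.07 (SE 0.08). The Dishevelled proteins carry the Wnt signal from Frizzled and are needed by Rnf43 and Znrf3 to reach it. Their genes were lower in 3 of 3 members, beside 52.1% of all probe sets, with a median of -0.10. The number past the threshold in limma was 0 of 3 with or without the block (0 of 3 at an unadjusted p under 0.05 without it). Dvl3 differed by -0.15 (SE 0.08) without overlap between the groups, Dvl1 by -0.10 (SE 0.09) and Dvl2 by -0.06 (SE 0.08). The groups did not overlap in 4.51% of all probe sets.

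Rnf43 and Znrf3 belong to a family of ligases with a protease-associated domain outside the membrane and a RING domain inside the cell. Of the 9 other members of that family 4 were lower and 5 higher, with a median difference of 0.01, and 0 of 9 passed in limma with or without the block (1 of 9, Rnf128, at an unadjusted p under 0.05). Rnf128, known as GRAIL from T cells, read 7.40 in Fz1-null and 7.11 in double-null arrays on average. The difference of -0.29 (SE 0.08) came from pairs at -0.22, -0.25 and -0.38. Znrf4 differed by 0.18 (SE 0.09) and Rnf150 by 0.12 (SE 0.07), both higher in 3 of 3 pairs, as were 11.6% of all probe sets. The groups did not overlap for these 3 genes, 3 of 9, beside the 4.51% of all probe sets.

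Feedback targets of Wnt/beta-catenin signalling, the class to which Rnf43 and Znrf3 are assigned, were lower in 7 and higher in 5 of 12 measured members, with a median of -0.01. None passed in limma (0 of 12 with or without the block, and 0 of 12 at an unadjusted p under 0.05 without it). Axin2, the scaffold protein most used as a readout of the pathway, differed by -0.05 (SE 0.13). Wif1, a secreted Wnt inhibitor, differed by -0.43 (SE 0.20), Dkk1, a secreted inhibitor of the co-receptors, by -0.20 (SE 0.16), and Nkd2, an inhibitor of Dishevelled, by 0.14 (SE 0.09). Wif1 and Dkk1, 2 of 12, were lower in 3 of 3 pairs, beside 12.8% of all probe sets. Dkk1 had pair differences of -0.01, -0.18 and -0.42, largest in pair 3, and Wif1 of -0.06, -0.75 and -0.49, largest in pair 2. Over pairs 1 to 3 Lef1, a transcription factor of the pathway, had 0.06, 0.17 and -0.25. In pair 3 Notum and Sp5 were higher, at 0.24 and 0.09, and the other measured members were lower. Whether the targets followed Rnf43 or Rspo2 over the pairs was not tested.

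**Figure D4:**
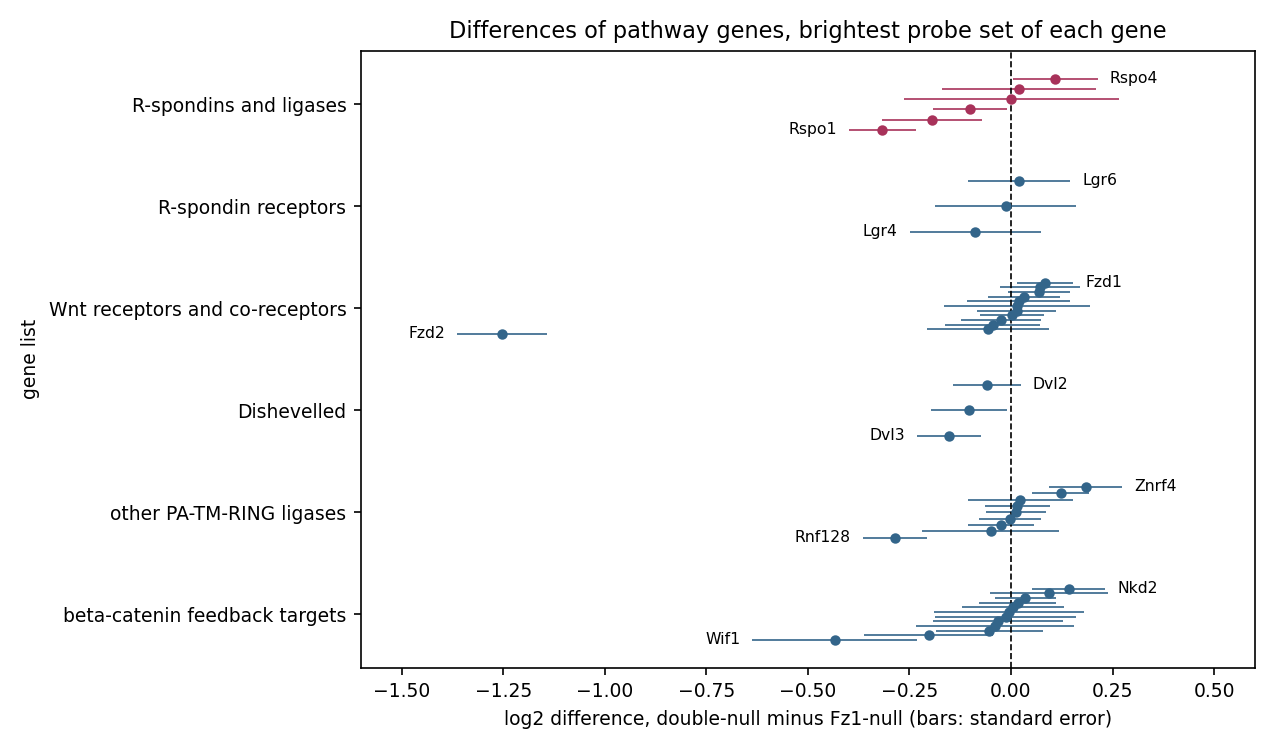
Log2 difference between genotypes (horizontal axis, bars are limma standard errors) of the 6 genes in red and of 5 lists of pathway genes in blue, by the brightest probe set of each gene, with the lowest and highest gene of each list named. Fzd2 at -1.25 stands apart, and Rspo1 at -0.32 is the lowest of the 6 genes.

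Epithelial and skeletal muscle markers differed most in pair 3, where Rnf43 and the brighter probe sets of Rspo2, Rspo3 and Znrf3 were lowest against their Fz1-null partners. Limma's array weights gave double-null array 3 the lowest weight, 0.60, against 0.95 to 1.25 for the other arrays. The dimmer probe sets of Rspo2, Rspo3 and Znrf3 were higher in pair 3, by 0.12, 0.21 and 0.02. In that pair epithelial markers were lower in 9 of 9 measured members, with a mean log2 difference of -0.53 (0.03 and -0.13 in pairs 1 and 2). Palatal mesenchyme markers were lower in 7 of 8, with a mean of -0.21, skeletal muscle markers were higher in 8 of 8, with a mean of 0.70, and neuronal markers were higher in 6 of 6, with a mean of 0.26 (-0.28 and -0.05 in pairs 1 and 2). Summed on the linear scale, epithelial markers ran from 6517 to 7931 in Fz1-null and from 5442 to 7778 in double-null arrays, and muscle markers from 6174 to 6476 and from 5482 to 10878. RMA gave no probe set a value of 0, so a value above 0 does not show that a marker was present. The part of these markers in the differences of Rnf43, Rspo2, Rspo3 and Znrf3 was not tested.

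Beside the Rspo1 pair differences of -0.33, -0.33 and -0.28, palatal mesenchyme markers were also lower in all 3 pairs, with means of -0.07, -0.09 and -0.21. On average 8 of 8 members were lower, beside 52.1% of all probe sets. The linear sum of these markers ran from 40637 to 45024 in Fz1-null and from 38399 to 43114 in double-null arrays. The epithelial means were 0.03, -0.13 and -0.53, and the muscle means -0.10, -0.22 and 0.70. The mean of neural progenitor markers was higher in double-null arrays in all 3 pairs, at 0.22, 0.19 and 0.27. On average 5 of 6 members were higher, and 4 of 6 in pair 3. Their linear sum ran from 3171 to 3440 in Fz1-null and from 3777 to 4171 in double-null arrays. The defining markers Sox1 and Pax6 stood at percentiles of 25.1 and 54.3 in their brightest probe sets. In pair 3 these differed by 0.35 and -0.17. Bone markers, of which 3 of 5 were measured, were lower in all 3 pairs, with means of -0.50, -1.81 and -0.29. The neural progenitor and bone lists hold genes (Sox1, Zic1 and Pou3f1; Ibsp) already known to differ in these arrays when the lists were written, so their directions are not independent. The part of any of these lists in the Rspo1 difference was not tested. The sexes were unevenly mixed, with Xist, the RNA of the inactive X chromosome, differing by 1.22, -7.66 and -0.04 in pairs 1 to 3 in its most different probe set. The 6 genes lie on chromosomes 2, 4, 10, 11 and 15. The part of the uneven sexes in the differences of the 6 genes was not tested.

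**Figure D5:**
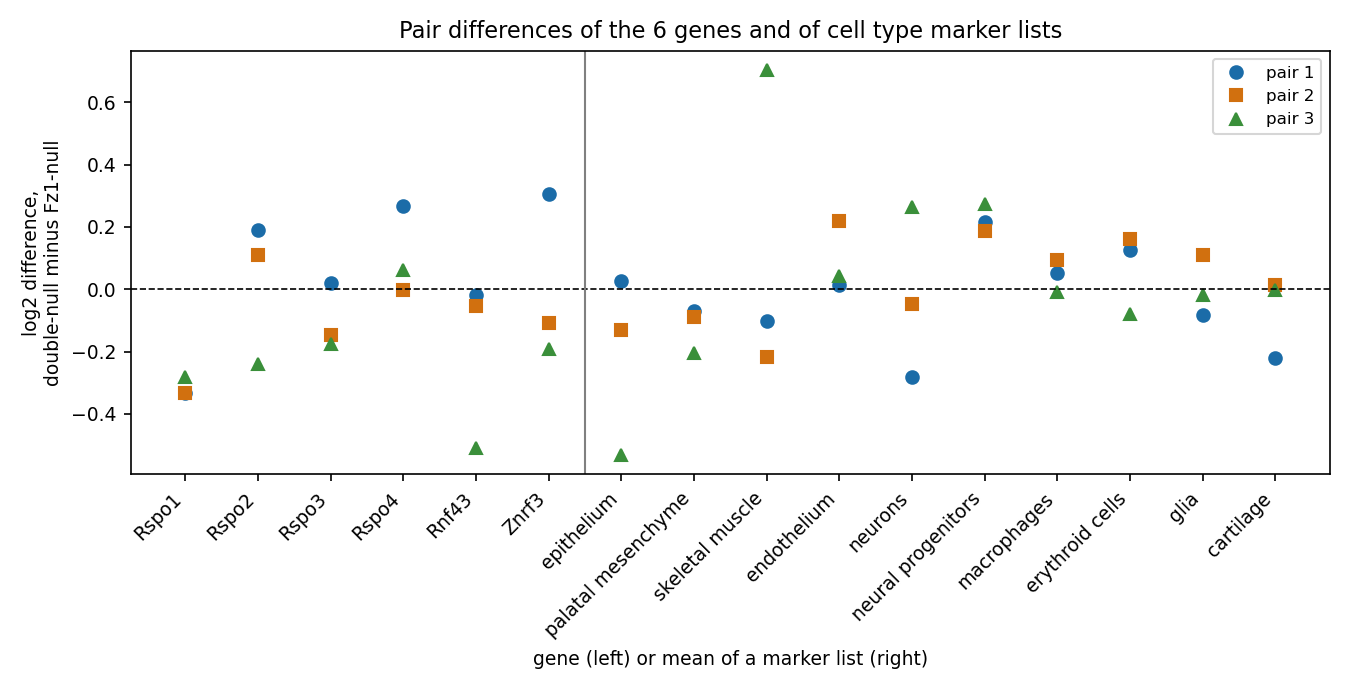
Log2 difference in each pair of arrays (vertical axis) for the 6 genes by their brightest probe set (left of the line) and for the mean of 10 cell type marker lists (right), with bone markers left out because 1 of their pair means, -1.81, would compress the axis. Pair 3 holds the lowest epithelial mean, -0.53, and the highest muscle mean, 0.70, and the 3 Rspo1 points lie between -0.33 and -0.28.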

How the data were processed

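RNA from 6 palate samples was measured on 6 arrays. The authors deposited log2 values per probe set, summarised by RMA per the submitters' processing notes. RMA corrects background, gives all arrays the same distribution by quantile normalisation and summarises probes by median polish, so a shift shared by most transcripts is not seen. Its version is not given in the sources used. They ran from 2.83 to 14.7, with array medians of 7.22 to 7.27. The authors' comparison was deposited as log2 and signed linear fold changes with unadjusted p-values, by a test that is not named. There the log2 value equals the difference of group means with the sign turned, within 4.93e-08.

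Of 45101 probe sets 64 controls were left out. Names came from the platform annotation, updated through Entrez identifiers to RefSeq (GRCm38.p6): 34945 of 45037 probe sets had a single symbol, 932 several and 9160 none, and 34741 matched RefSeq. Upstream sequences are from RefSeq, where 3 of the 6 genes had an entry in the table used.

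Genotypes were compared with lmFit and eBayes of limma 3.58.1 (R 4.3.3), genotype being the only term, with Benjamini-Hochberg adjustment over all 45037 probe sets and a two-sided threshold of 0.05. SE and intervals are limma's moderated ones, from the genotype-only fit unless the block is named. That fit counts the spread between array numbers as error. An unadjusted p under 0.05 in limma was reached by 431 probe sets in it and by 2121 with the block. The labels do not say what a replicate number shares, and the numbers were taken as pairs because same-numbered arrays deviated together (r of 0.63, 0.44 and 0.63); the fit with the number as a block was run beside the main one. Levels of different probe sets were not compared. The genotype-only fit was tested on simulated arrays that varied independently. It recovered 78 of 100 changes of 1 log2 unit and 97 of 100 changes of 2. The block fit, and changes as small as those of the members, were not tested in this way. Genes named for likeness were the 3 other genes with the highest Pearson correlation with a member's brightest probe set, for members at or above the median brightness. Up to 3 genes with the smallest p were named in each list. Axin2, Lef1, Notum, Sp5 and the defining markers were named after their values were seen. The members and lists were chosen with earlier results of these data known.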

Additional observations from a re-analysis of the deposited data

How the results depend on the processing

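With the replicate number as a block (replicate block), the count of probe sets past an adjusted p of 0.05 moved from 0 to 3 and that of pathway genes from 0 to 1, all of Fzd2; the block changed no call of the 9 probe sets. Member calls were 0 under the block, the filter to probe sets at or above the median mean, an intensity trend, array weights, repeated quantile normalisation, centred medians, log2 of the value plus 32, the authors' deposited p-values after Benjamini-Hochberg correction and each array left out. The filter kept 4 of the 9 probe sets and gives no value for the other 5. The median member difference ran from -0.172 (without double-null array 1) to 0.0106 over the arrays left out, against 0.001 with all 6. Rspo1, the brighter Rspo3 probe set, Rspo4 and Rnf43 kept their direction under every alternative run. The block, the trend and the filter leave the differences they report unchanged by design. The other probe sets changed sign in 1 to 4 alternatives each, and the brighter Znrf3 probe set ran from -0.218 to 0.286 over the arrays left out. The small number of arrays and the dim signals of Rspo4, Rnf43 and the second probe sets limit what can be seen.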
